A study of Homo sapiens with 12 samples.

Results

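Homologous recombination repairs broken chromosomes by copying the intact sister chromatid, and the Fanconi anaemia pathway unhooks crosslinks between DNA strands and hands the resulting breaks to it. The genes of both pathways were read here as 1 group of 37, listed by symbol and split by role. A gene entered through a probe set that the platform's table pairs with its symbol alone, taking the probe set with the highest mean where there were several. This gave 29 of the 37 genes, each with exactly 1 probe set, among 20572 genes in the fit, and all 29 passed the filter on dim probe sets. ATM, RAD51D and RAD54B lie on probe sets that name several genes, and BRCA2, FANCA, FANCD2, RBBP8 and XRCC2 were not in the probe table; these 8 were not analysed here.

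The cells were MDA-MB-231, an established line of triple-negative breast cancer taken from a pleural effusion. They were left untreated (control), or received TNFα at 40 ng/ml, apigenin at 40 µM, or both, for 24 h, and each of the 4 groups had 3 whole-transcript arrays of total RNA, numbered 1 to 3. TNFα is a cytokine of inflammation, and apigenin is a flavonoid found in parsley that blocks several kinases. The treatments were prepared in a buffered salt solution (HBSS); the sources used here name no solvent for the controls. They also do not say whether the 3 samples of a group were separate cultures, so each p-value rests on the spread between samples, which may be technical.

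Values are deposited log2 expression values, one per probe set and array. They have no fixed zero, so levels are compared between arrays for a gene and not between genes. The mesenchymal genes known for this line (VIM, CD44, EGFR, AXL, CAV1 and MSN) lay at or above the 91.8th percentile of each array. ESR1, PGR, CDH1 and ERBB3 stayed at or below 2.52, EPCAM and GATA3 reached 5.24 and 4.67, and of the leukocyte genes PTPRC and CD3E did not pass the filter while CD68 read 9.52 to 9.95. With TNFα against control the NF-κB targets CXCL8 and TNFAIP3 differed by 4.36 (SE 0.19) and 3.12 (SE 0.15). The median over the 29 repair genes, set against the mean of the control arrays, was highest on the array numbered 3 in the control (0.21), TNFα (0.17) and combined (0.16) groups, and stood at -0.01 on apigenin array 3.

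In recombination, the MRN complex of MRE11, RAD50 and NBN binds and trims the broken ends, and the nuclease EXO1 and the helicase BLM extend the single-stranded tails. BRCA1, BARD1, PALB2 and BRCA2 then prepare these tails for the search for the sister, RAD51B, RAD51C and XRCC3 act beside them, and RAD54L and RAD51AP1 help the tail to invade it. MUS81 with EME1, and SLX4, cut the joined molecules apart. In the Fanconi pathway FANCM anchors a core complex, whose FANCL adds ubiquitin to the FANCD2 and FANCI pair. Many of these genes are transcribed mostly in S and G2 phase.

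Apigenin was followed by lower values of some genes of these pathways and higher values of others, with no common direction. In RNA from whole cultures, fewer cells in a state that reads a gene and less of its RNA per cell cannot be told apart. Over the 6 arrays with apigenin against the 6 without it, 12 of the 29 genes were called, 8 lower and 4 higher, at an adjusted p below 0.05 in limma over all 20572 genes. Of all genes, 20.2% were called in that comparison, 11.7% lower and 8.5% higher. The 6 arrays with apigenin did not overlap the 6 without it for 5 of the 29 genes, and for 9.89% of all genes. The median difference of the 29 genes was -0.05, and that of all genes -0.01. The genes that fell were MRE11, RAD51C, MUS81, FANCG, RAD51AP1, SWI5, BRIP1 and RAD50, and those that rose were FANCB, PALB2, EME1 and XRCC3. No gene of the 29 was called for TNFα.

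**Figure D1:**
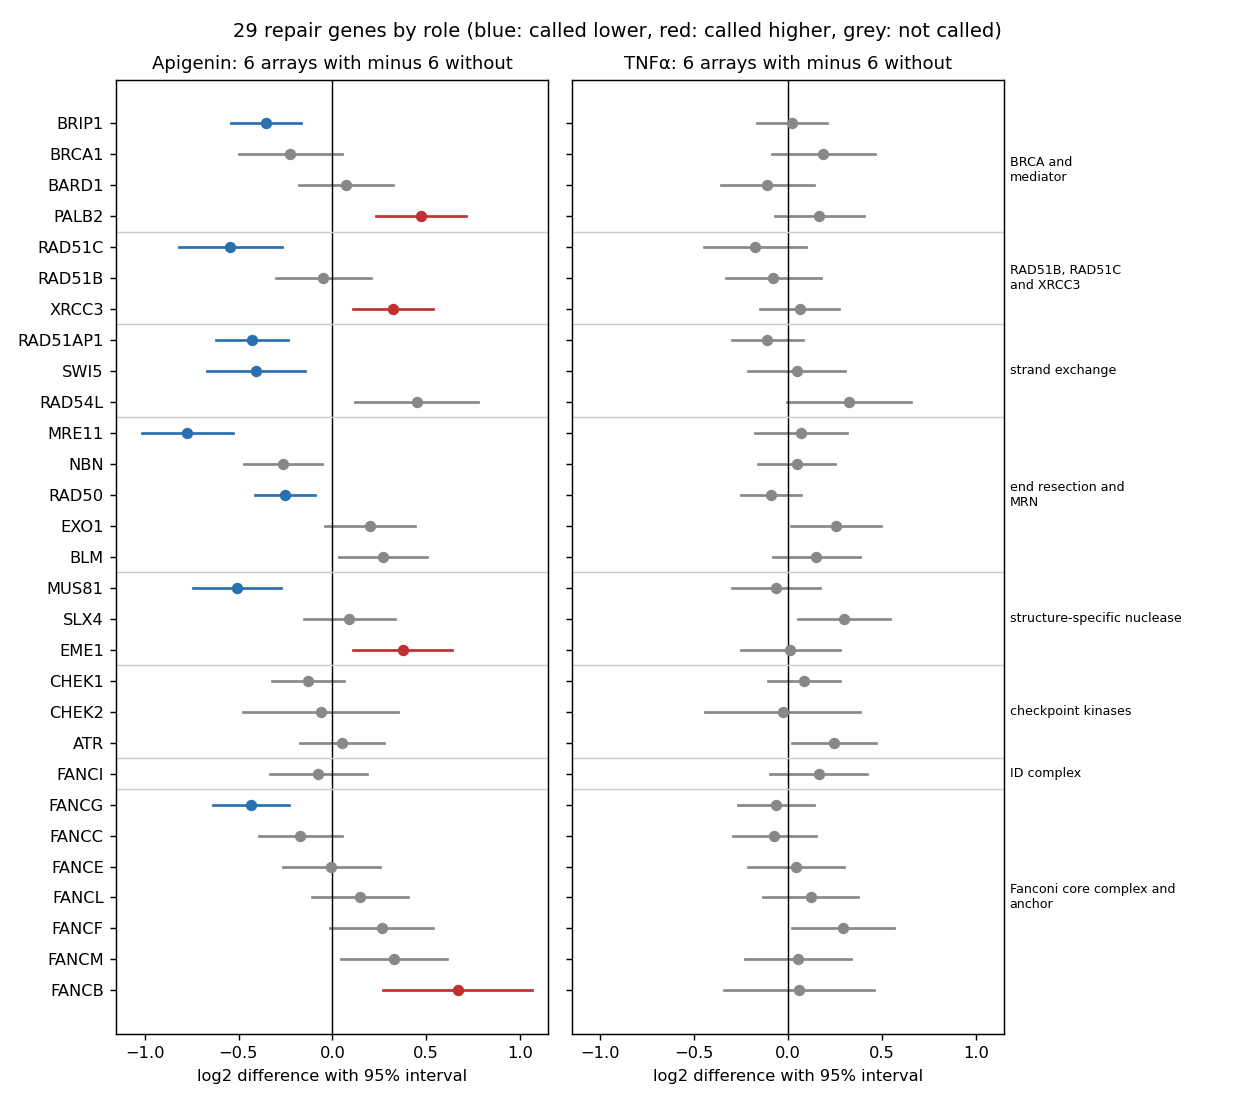
Each point is the log2 difference of 1 of the 29 repair genes with its 95% interval, for apigenin on the left and TNFα on the right, 6 arrays with the treatment minus 6 without, grouped by role. With apigenin 8 genes are called lower (blue) and 4 higher (red), from MRE11 at -0.77 to FANCB at 0.67; with TNFα all 29 are grey.

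The promoters of 4 genes are shown because the cell cycle is read through short motifs there. MRE11 had the largest fall of the 29, BRIP1 also fell, PALB2 rose, and PLK1, a mitotic kinase outside the group that fell by 2.18 (SE 0.09, adjusted p = 1.55e-08) with apigenin, is given for comparison. The stretches are the 250 bases before the start, 5′ to 3′ on the gene's strand, from RefSeq's GRCh38.p14: chr11:94493845-94494094 (minus strand), chr17:61863529-61863778 (minus), chr16:23641311-23641560 (minus) and chr16:23678639-23678888 (plus). Capitals mark, on either strand, the word CCAAT, a box bound by NF-Y, and the word TTTGAA of the CHR element, through which the DREAM and B-MYB complexes time G2 and M genes.
MRE11: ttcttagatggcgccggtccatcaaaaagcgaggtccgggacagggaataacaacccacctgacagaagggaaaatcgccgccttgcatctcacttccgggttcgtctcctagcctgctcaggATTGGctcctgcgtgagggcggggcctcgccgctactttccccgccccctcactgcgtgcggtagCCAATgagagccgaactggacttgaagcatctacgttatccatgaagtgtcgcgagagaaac
BRIP1: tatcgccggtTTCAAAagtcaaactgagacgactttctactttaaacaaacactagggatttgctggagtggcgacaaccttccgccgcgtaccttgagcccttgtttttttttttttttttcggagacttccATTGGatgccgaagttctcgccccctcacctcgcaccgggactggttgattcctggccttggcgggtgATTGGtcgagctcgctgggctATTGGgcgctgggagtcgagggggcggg
PALB2: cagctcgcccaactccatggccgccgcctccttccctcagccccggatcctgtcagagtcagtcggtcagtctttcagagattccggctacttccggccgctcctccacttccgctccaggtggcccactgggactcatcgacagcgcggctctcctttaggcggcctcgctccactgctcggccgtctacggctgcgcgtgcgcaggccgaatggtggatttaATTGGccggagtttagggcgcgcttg
PLK1: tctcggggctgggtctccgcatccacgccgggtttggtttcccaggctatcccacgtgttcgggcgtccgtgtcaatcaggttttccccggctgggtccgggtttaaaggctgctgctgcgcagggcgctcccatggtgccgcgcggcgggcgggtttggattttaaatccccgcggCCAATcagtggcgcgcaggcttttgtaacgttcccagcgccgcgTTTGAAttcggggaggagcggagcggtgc

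PLK1 has CCAAT at 73 to 69 bases before its start and a CHR word at 29 to 24. MRE11 has CCAAT at 127 to 123 and at 62 to 58 bases before its start, and PALB2 has it at 26 to 22. BRIP1 has CCAAT at 117 to 113, 49 to 45 and 28 to 24, and a CHR word at 240 to 235. Windows of 250 bases before to 50 after the start were found for 27 of the 29 genes, and a gene with several windows was counted once. The CHR word was in 2 of these 27 (7.41%), BRIP1 and FANCC, against 28 of 39 genes of a G2/M and mitosis list (71.8%) and 18.2% of 27305 genes. The E2F words TTTCCCGC, TTTGGCGC, TTTGCCGC and TTTCGCGC, on either strand, were in 2 of 27 (EXO1 and FANCC), against 21 of 39 genes of a G1/S and replication list and 3.99% of all. CCAAT was in 14 of 27 (51.9%) and in 39.7% of all; among the genes that fell it was in 5 of 8, and among those that rose in 2 of 4. Words of different kinds shared bases in the windows of 0 of the 27 genes and of 46 of the 27305. A match is a run of letters, not a shown binding site.

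Of the end-binding and resection genes, MRE11, the nuclease of the MRN complex (probe set 16743374), changed most. MRE11 read 5.84, 5.84 and 6.18 on the control arrays, 5.87, 5.79 and 6.14 with TNFα, 5.16, 5.08 and 5.04 with apigenin, and 5.15, 5.00 and 5.59 with both. Every array with apigenin lay below every array without it, and TNFα arrays lay within the control range apart from 1 slightly lower. MRE11 was 1.71-fold lower with apigenin on average (log2 difference -0.77, SE 0.11, adjusted p = 0.000256). The call was kept in all 21 alternative analyses, with differences of -0.86 to -0.65 and adjusted p from 2.51e-05 to 0.0215. It was also called separately without TNFα (-0.86, SE 0.16, adjusted p = 0.00338) and with TNFα (-0.69, SE 0.16, adjusted p = 0.0143). These comparisons share no array, but 1 fit gave the spread for both.

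RAD50, the ATPase that holds the ends together (probe set 16989054), had a tight control group. RAD50 read 7.51, 7.53 and 7.56 on the control arrays, 7.30, 7.27 and 7.08 with TNFα, 7.02, 7.12 and 7.03 with apigenin, and 7.18, 7.18 and 7.20 with both. The control arrays were the highest and the other 3 groups all lay below them, TNFα alone included. RAD50 differed by -0.48 between apigenin and control (SE 0.10, adjusted p = 0.00864), by -0.32 between TNFα and control (SE 0.10, adjusted p = 0.231) and by -0.03 between the combined treatment and TNFα (SE 0.10, adjusted p = 0.932). Averaged over TNFα the apigenin difference was -0.25 (SE 0.07, adjusted p = 0.0255). Without the 4 arrays numbered 3, the difference between apigenin and control had an adjusted p of 0.0715 (-0.45).

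NBN, the adaptor that brings in the kinase ATM (probe set 17078916), was not called. NBN read 6.40, 6.75 and 6.63 on the control arrays, 6.46, 6.52 and 6.55 with TNFα, 6.29, 5.96 and 6.35 with apigenin, and 6.47, 6.24 and 6.43 with both. The apigenin arrays lay below the control arrays, while the combined and TNFα arrays overlapped, and the averaged difference was -0.26 (95% interval -0.47 to -0.06, adjusted p = 0.0720). EXO1 differed by 0.20 (95% interval -0.04 to 0.44) and BLM by 0.27 (0.04 to 0.50, adjusted p = 0.107), neither of them called.

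Among the BRCA genes and their partners, PALB2 rose and BRIP1 fell. PALB2 (probe set 16825104) bridges BRCA1 and BRCA2. PALB2 read 4.93, 4.93 and 5.40 on the control arrays, 5.47, 5.06 and 5.42 with TNFα, 5.57, 5.50 and 5.79 with apigenin, and 5.71, 5.63 and 5.82 with both. Each of the 6 arrays with apigenin was above each of the 6 without, the nearest pair being 5.50 and 5.47. PALB2 was 1.39-fold higher with apigenin on average (log2 difference 0.47, SE 0.11, adjusted p = 0.00737). The call held in all 21 alternatives, at differences of 0.41 to 0.64 and adjusted p of 0.000937 to 0.0216. PALB2 was called without TNFα (0.54, SE 0.16, adjusted p = 0.0415) and not with it (0.41, SE 0.16, adjusted p = 0.133), where its groups did not overlap either.

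BRIP1 (probe set 16847432) is a helicase that binds BRCA1. BRIP1 read 7.44, 7.28 and 7.52 on the control arrays, 7.18, 7.27 and 7.44 with TNFα, 6.86, 6.89 and 7.02 with apigenin, and 7.20, 6.91 and 7.13 with both. The apigenin group had the lowest mean, although combined array 2 lay below apigenin array 3, and the highest combined array lay just above the lowest TNFα array. BRIP1 was 1.28-fold lower with apigenin on average (log2 difference -0.36, SE 0.09, adjusted p = 0.00946). The adjusted p was 0.0667 without the 4 arrays numbered 3 and 0.178 with the small nucleolar RNA covariate described below. BRCA1 and its ring-finger partner BARD1 (probe sets 16845349 and 16907960) were not called, at -0.22 (95% interval -0.50 to 0.05) and 0.07 (-0.18 to 0.32). BRCA1 read 4.21, 4.38 and 5.06 in control, a spread wider than its other groups, of which TNFα was the highest at 4.79 to 4.95.

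RAD51C and XRCC3, which bind each other, split in the same manner. RAD51C (probe set 16836457) is the member of the pair that fell. RAD51C read 4.55, 4.46 and 4.65 on the control arrays, 4.45, 4.12 and 4.32 with TNFα, 3.94, 3.50 and 4.35 with apigenin, and 3.84, 3.71 and 3.96 with both. Both groups with apigenin had lower means than both without, but apigenin array 3 at 4.35 stood among the TNFα arrays. RAD51C was 1.46-fold lower with apigenin on average (log2 difference -0.54, SE 0.13, adjusted p = 0.0071). XRCC3 (probe set 16797025) went the other way. XRCC3 read 3.56, 3.81 and 3.97 on the control arrays, 3.94, 3.99 and 3.70 with TNFα, 4.29, 3.93 and 4.20 with apigenin, and 4.14, 4.21 and 4.15 with both. XRCC3 was 1.25-fold higher with apigenin on average (log2 difference 0.32, SE 0.10, adjusted p = 0.0317). Its groups overlapped, since apigenin array 2 lay below control array 3 and TNFα arrays 1 and 2. RAD51B was not called, at -0.05 (95% interval -0.30 to 0.20), with all arrays between 1.99 and 2.60, in the low part of the scale.

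The RAD51C call was kept without each single array but not with the small nucleolar RNA covariate (-0.53, adjusted p = 0.106). The XRCC3 call was lost in 9 of 21 alternatives, at adjusted p of up to 0.447 with that covariate. These included 7 of the 12 fits that left out 1 array: control 1, TNFα 3, apigenin 1 or 3, or any of the combined arrays.

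Of the genes that help in strand exchange, RAD51AP1 (probe set 16747014), which promotes the pairing of the strands, had close values with apigenin. RAD51AP1 read 5.98, 6.17 and 6.16 on the control arrays, 5.76, 5.70 and 6.08 with TNFα, 5.50, 5.52 and 5.57 with apigenin, and 5.50, 5.49 and 5.69 with both. The highest array with apigenin, at 5.69, fell just below the lowest without it, at 5.70. RAD51AP1 was 1.34-fold lower with apigenin on average (log2 difference -0.43, SE 0.09, adjusted p = 0.00312). Without TNFα the difference was -0.57 (SE 0.12, adjusted p = 0.00848), and with TNFα -0.28 (SE 0.12, adjusted p = 0.198). With the small nucleolar RNA covariate it was -0.28 (adjusted p = 0.172), the only one of 21 alternatives that ended the call.

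SWI5 (probe set 17089582) forms with SFR1 a cofactor of strand exchange. SWI5 read 3.11, 2.50 and 2.82 on the control arrays, 2.95, 3.09 and 2.58 with TNFα, 2.60, 2.41 and 2.25 with apigenin, and 2.51, 2.52 and 2.32 with both. These are low values that overlapped through control array 2 and TNFα array 3. SWI5 was 1.33-fold lower with apigenin on average (log2 difference -0.41, SE 0.12, adjusted p = 0.0279). The call was lost in 8 of 21 alternatives, at adjusted p of 0.0529 to 0.0857. They were the centring of arrays on their medians, the fit without the arrays numbered 3, and the fits without control 1, TNFα 1 or 2, apigenin 2 or 3, or combined array 3.

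RAD54L, a motor protein that drives strand invasion (probe set 16664243), was highest with both treatments. RAD54L read 4.30, 3.91 and 4.99 on the control arrays, 4.74, 4.38 and 4.83 with TNFα, 4.76, 4.64 and 4.93 with apigenin, and 5.24, 5.06 and 5.22 with both. The combined arrays, at 5.06 to 5.24, lay above all 9 others. RAD54L differed by 0.77 between the combined treatment and control (SE 0.22, adjusted p = 0.0315), and by 0.45 with apigenin on average (SE 0.15, adjusted p = 0.0553). The first call was lost in 6 of 22 alternatives, with adjusted p of up to 0.123: without control 1 or 2, without any of the combined arrays, and with only the groups compared.

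The nuclease subunits MUS81 and EME1, which act as a pair, moved apart. MUS81 (probe set 16727111) is the catalytic subunit. MUS81 read 4.55, 4.11 and 4.26 on the control arrays, 4.33, 4.34 and 3.96 with TNFα, 3.89, 3.53 and 3.88 with apigenin, and 3.84, 3.64 and 3.72 with both. All arrays with apigenin were below all without, although the margin to TNFα array 3 was narrow. MUS81 was 1.42-fold lower with apigenin on average (log2 difference -0.51, SE 0.11, adjusted p = 0.00401). The call held in all 21 alternatives, at -0.73 to -0.45 and adjusted p of 0.00127 to 0.0137. EME1 (probe set 16835797) is its partner. EME1 read 3.76, 3.76 and 3.96 on the control arrays, 3.999, 3.524 and 3.996 with TNFα, 4.10, 4.02 and 4.49 with apigenin, and 4.25, 3.95 and 4.44 with both. EME1 was 1.30-fold higher with apigenin on average (log2 difference 0.37, SE 0.12, adjusted p = 0.0452). Its apigenin and control arrays did not overlap, but combined array 2 lay just below control array 3. The EME1 call was lost in 9 of 21 alternatives, at adjusted p of 0.0536 to 0.143, among them the fits without control 1 or 2, TNFα 2, apigenin 1 or 3, or combined array 1 or 3. The scaffold SLX4 differed by 0.09 (95% interval -0.15 to 0.33).

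**Figure D2:**
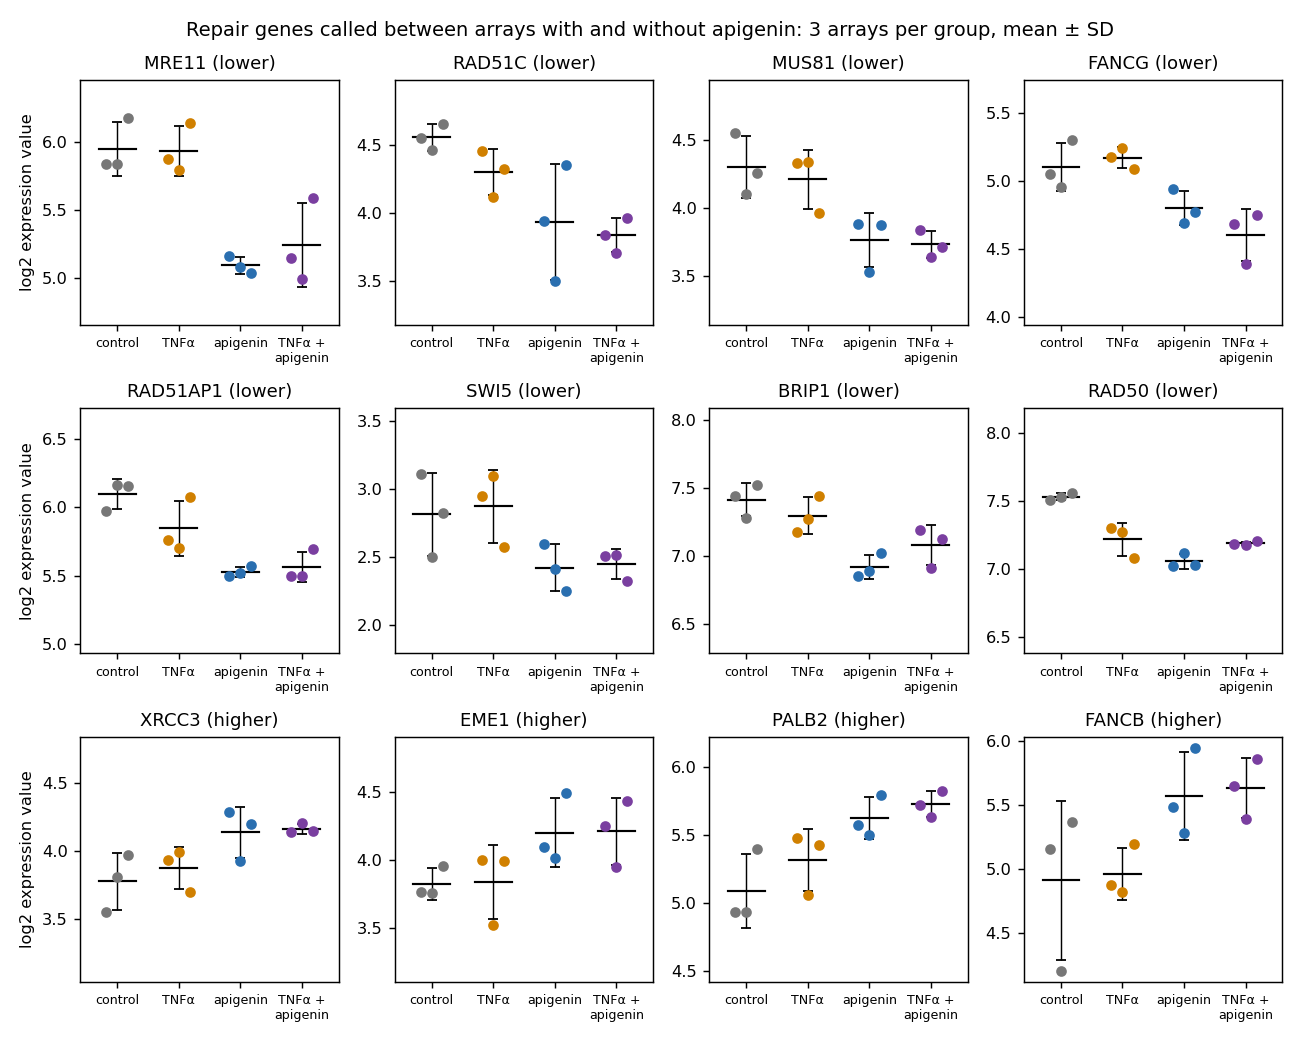
Log2 expression value of the 12 repair genes called with apigenin, 1 panel per gene, with 3 arrays in each of 4 groups, the mean as a line and the SD as a bar; the vertical axes differ in level. MRE11, RAD51AP1, MUS81, FANCG and PALB2 show no overlap between the 6 arrays with and the 6 without apigenin, and the other 7 panels do.

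In the Fanconi core complex FANCG fell and FANCB rose. FANCG (probe set 17093595) holds FANCA in the complex. FANCG read 5.05, 4.95 and 5.30 on the control arrays, 5.17, 5.24 and 5.09 with TNFα, 4.94, 4.69 and 4.77 with apigenin, and 4.68, 4.39 and 4.74 with both. The groups with and without apigenin did not overlap, by a margin of 4.94 against 4.95. FANCG was 1.35-fold lower with apigenin on average (log2 difference -0.43, SE 0.09, adjusted p = 0.00466). The call held in all 21 alternatives, at -0.51 to -0.38 and adjusted p of 0.00121 to 0.0312. FANCG was called with TNFα (-0.57, SE 0.13, adjusted p = 0.0155) and not without it (-0.30, SE 0.13).

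FANCB (probe set 17109211) is the scaffold of the module that holds FANCL. FANCB read 5.16, 4.20 and 5.37 on the control arrays, 4.87, 4.82 and 5.20 with TNFα, 5.49, 5.28 and 5.95 with apigenin, and 5.65, 5.39 and 5.86 with both. Control array 2 was far below the other control arrays, and apigenin array 2 overlapped control array 3. FANCB was 1.59-fold higher with apigenin on average (log2 difference 0.67, SE 0.18, adjusted p = 0.0196). Leaving out apigenin array 3 gave 0.57 (adjusted p = 0.0506), and the small nucleolar RNA covariate 0.73 (adjusted p = 0.123).

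FANCC, an adaptor of the core complex (probe set 17096054), was lower in apigenin than in control but not in the combined arrays than in TNFα. FANCC read 4.76, 4.68 and 5.14 on the control arrays, 4.42, 4.26 and 4.59 with TNFα, 4.53, 4.15 and 4.29 with apigenin, and 4.63, 4.61 and 4.60 with both. The control arrays were the highest. The difference was -0.54 without TNFα (SE 0.15, adjusted p = 0.0293) and 0.19 with it (SE 0.15, adjusted p = 0.523). The first call was lost in 6 of 22 alternatives, without control 3 or apigenin 2 or 3 among them (adjusted p of up to 0.211). FANCE, FANCF, FANCL and FANCM were not called with apigenin, at -0.01, 0.26, 0.15 and 0.33. FANCF had its highest mean in the combined arrays, at 3.49 to 4.03, against 3.14 to 3.46 with apigenin alone, but the third control and TNFα arrays, both at 3.56, lay above combined array 2 (combined minus apigenin 0.54, SE 0.18, adjusted p = 0.493). FANCI, the partner of FANCD2, differed by -0.08 (95% interval -0.34 to 0.18).

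The damage kinases were not among the called genes. The averaged apigenin difference was 0.05 for ATR (95% interval -0.17 to 0.27), which answers to stalled forks, and -0.13 for its effector CHEK1 (-0.32 to 0.06). CHEK2, the effector of ATM, differed by -0.06 (-0.47 to 0.35), with arrays from 2.13 to 3.18 and the widest interval of the 3.

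Without TNFα, 8 of the 29 genes were called between apigenin and control, 7 lower and 1 higher, against 11.4% of all genes (6.83% lower and 4.55% higher). With TNFα, 2 were called, both lower, against 10.1% of all genes (5.92% lower). The 2 comparisons share no array, but each gene's spread came from 1 fit of all 12 arrays. Same-numbered arrays also deviated together across groups (r of 0.0182 to 0.464), so the 2 comparisons are not fully independent. Their differences had the same sign in 26 of the 29 genes (89.7%), and in 68.5% of all genes; across genes, which are not independent, Pearson's r was 0.81 for the 29 and 0.76 for all. FANCC, RAD51B and CHEK2 had opposite signs. Of the 8 called without TNFα, 7 had the same sign with it (87.5%) and 1 (MRE11) was called again (12.5%). Among all genes, 2342 were called without TNFα, of which 98% had the same sign with it and 59.3% were called again. The number of the 29 called with TNFα is small and ran from 0 to 9 over the alternatives. The 9 came with the replicate number as a block, a fit that also called more of all genes, as given further on. Groups did not overlap for 11 of 29 genes without TNFα (25.5% of all genes) and for 13 of 29 with it (26.2%).

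**Figure D3:**
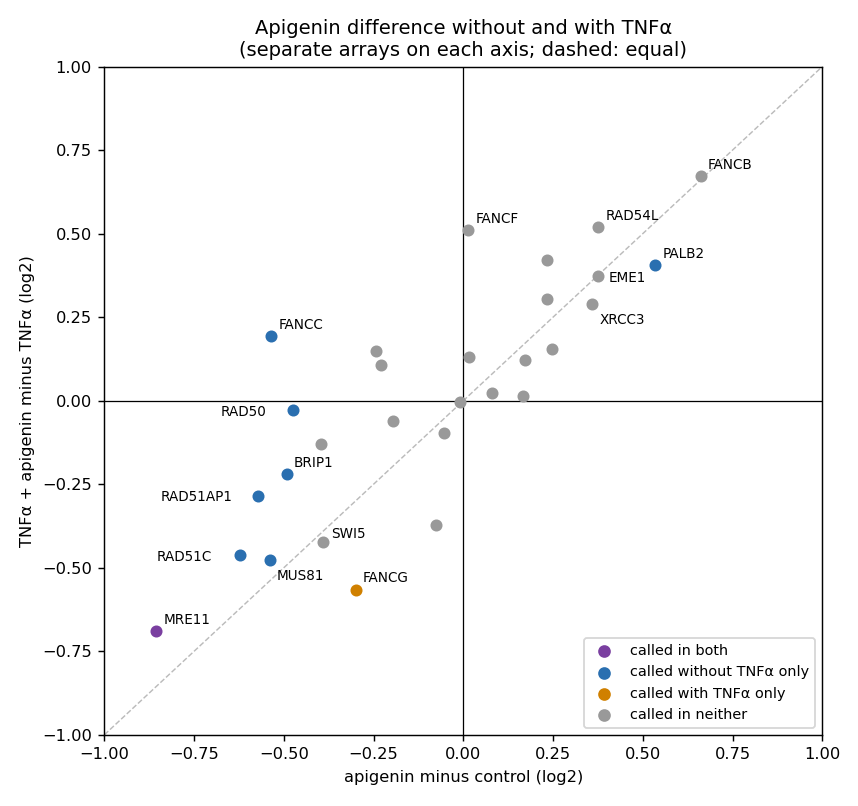
Each point is 1 of the 29 repair genes: its log2 difference between apigenin and control on the horizontal axis and between the combined treatment and TNFα on the vertical axis, coloured by where it was called. In 26 genes both differences have the same sign; MRE11 is called on both axes and FANCG on the vertical axis alone.

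The combined treatment against control called 8 of 29 genes, 6 lower and 2 higher (12.5% of all genes, 5.37% lower and 7.15% higher): MRE11, RAD51C, RAD51AP1, MUS81, FANCG and RAD50 lower, PALB2 and RAD54L higher. It shares the control arrays with the comparison of apigenin alone, so the values only stand side by side. RAD51C differed by -0.72 (SE 0.18) with both and by -0.62 (SE 0.18) with apigenin alone, and MUS81 by -0.57 and -0.54 (SE 0.15 each).

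For TNFα, limma called 0 of the 29 genes in all 3 comparisons. Against control 0.997% of all genes were called and 3 of the 29 had an unadjusted p below 0.05 (11.6% of all genes), FANCC (-0.44), RAD50 (-0.32) and SLX4 (0.37). On top of apigenin 0.209% of all genes were called and 1 of the 29, FANCF, had an unadjusted p below 0.05 (7.24% of all genes). On average over apigenin, where 1.74% of all genes were called, the differences ran from -0.18 (RAD51C) to 0.33 (RAD54L), and 4 had an unadjusted p below 0.05 (13.8% of all genes): SLX4, FANCF, ATR and EXO1, all above 0. RAD54L was called there without control array 3 (0.47, adjusted p = 0.0457), and FANCC against control with quantile normalisation (-0.55, adjusted p = 0.0336). For the interaction, in which limma called 0.0535% of all genes, none of the 29 was called and 2, FANCC and RAD50, had an unadjusted p below 0.05 (4.23% of all genes).

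Other genes of the same pathways, 46 listed and 40 in the fit, also went both ways with averaged apigenin, with a median of 0.01. Of the 40, 11 were called higher and 6 lower, against 8.5% and 11.7% of all genes. WDR48 is the cofactor of the USP1 enzyme that takes ubiquitin off the FANCD2 and FANCI pair. WDR48 fell from 6.07 ± 0.23 (SD, n = 3) in control to 4.63 ± 0.01 with apigenin. The fall was smaller with TNFα, from 6.16 ± 0.08 with TNFα alone to 5.21 ± 0.13 with both. Averaged over TNFα, the apigenin difference was -1.20 (SE 0.09, adjusted p = 1.26e-06 in limma). TOP3A and RMI1, which with BLM dissolve joined molecules, rose by 0.65 (SE 0.09) and 0.74 (SE 0.12). Genes of G1/S and replication had 10 of 45 called higher and 10 called lower (median 0.06). Of the genes read in G2 and mitosis, 38 of 42 were called lower and 1 higher, with a median of -0.72. The differences ran from -0.77 to 0.67 in the 29 repair genes, from -0.87 to 1.30 in the replication list and from -2.18 to 0.34 in the mitosis list.

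**Figure D4:**
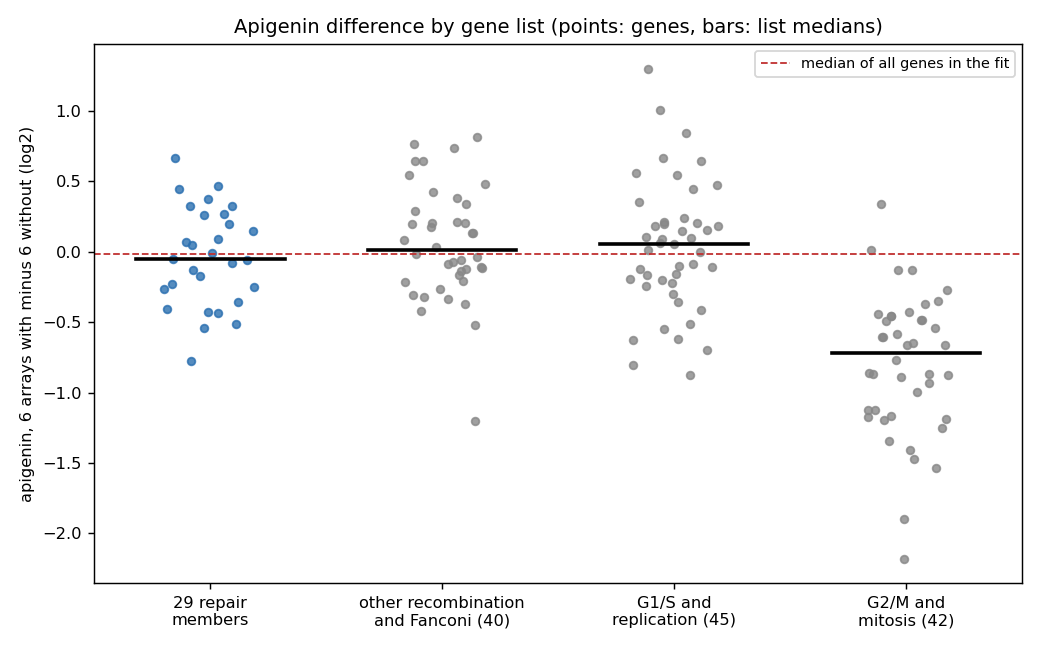
Log2 difference between the 6 arrays with and the 6 without apigenin for each gene of 4 lists, with a bar at the list's median and a dashed line at the median of all genes. The 29 repair genes spread on both sides of 0 around -0.05, while the mitosis list lies mostly below 0 around -0.72.

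Small nucleolar RNAs, short RNAs that guide the modification of ribosomal RNA, had higher array medians on the arrays with apigenin than on the control arrays. The array medians of 173 of them ran from 5.33 to 5.69 for untreated cells and from 5.77 to 6.34 for apigenin. They ran from 4.75 to 5.96 for TNFα and from 5.86 to 5.90 for the combination. Taken per gene against the control mean, the medians overlapped: 0.19 on control array 1, against 0.17 and 0.11 on combined arrays 1 and 3. The apigenin arrays, at 0.22 to 0.76, and combined array 2, at 0.31, lay above control array 1. With the array median of the values as a covariate, a fit chosen after seeing the data, 5 of the 29 genes were called for apigenin on average. All of them were among the 12: MRE11, MUS81, FANCG and SWI5 lower and PALB2 higher. Over all genes the same covariate took the calls from 4148 to 2014. The count of 12 was 7 (6 lower, 1 higher) without apigenin array 3, and 15 (8 lower, 7 higher) without control array 3, where 3887 and 3849 of all genes were called.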

How the data were processed

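Total RNA of 12 samples of MDA-MB-231 cells was read on Affymetrix whole-transcript arrays, 3 per group. The deposited values are on the log2 scale, and the submitters' processing notes name Affymetrix Expression Console; the sources used here give no version, summary method, normalisation or genome build. All values lay between 0.536 and 12.495, and array medians between 2.09 and 2.16. The number of arrays, not a depth, limits the precision.

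Probe sets were named through the platform's probe table, with symbols updated by gene identifier (90 changed). A probe set was kept if, on 3 or more arrays, it was no lower than the 25th percentile of that array (1.60 to 1.65), and a gene was read from its probe set with the highest mean. limma 3.58.1 in R 4.3.3 (lmFit with 4 group means, contrasts.fit, eBayes) was fitted to 20572 genes with 8 residual degrees of freedom, and p-values were adjusted by Benjamini-Hochberg over all of them. A gene was called below 0.05. The fit was tested on simulated data, in which 200 genes changed by 0.5 and 200 by 1 on the log2 scale. For averaged apigenin it called 59% of the changes of 0.5 and 97% of those of 1. For apigenin against control it called 22.5% and 86%, so a gene not called may still have changed. Fewer genes changed in the simulation than were called in the data, so these shares need not hold there. Comparisons were apigenin or TNFα alone against control, the combined treatment against each other group, the interaction, and each treatment averaged over the other.

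The 37 genes, the gene lists and the motifs were chosen with earlier results of these data known. Repair genes called in any comparison are given array by array. Of each other list, up to 3 genes with the smallest adjusted p for averaged apigenin are named, plus check genes. Alternatives were other filters, normalisations and probe-set rules, the replicate number as a block, array weights, left-out arrays, a threshold of 0.01 and a small nucleolar RNA covariate. The threshold of 0.01 was applied to the counts of called genes only. It is not among the alternatives counted for a single gene.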

Additional observations from a re-analysis of the deposited data

Results flagged for a closer look

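For 2 repair genes the groups moved in opposite ways depending on the other treatment, without overlap. How many of all genes did so was not counted, and the shares for single comparisons do not give it. In single comparisons, groups did not overlap for 25.5% (apigenin against control) and 26.2% (combined against TNFα) of all 20572 genes. They did not overlap for 2806 genes with TNFα against control and for 2910 with both against apigenin. FANCC was lower with TNFα than in control and higher with both treatments than with apigenin alone, and likewise lower with apigenin than in control and higher with both than with TNFα alone. The last of these margins was narrow, 4.597 on the lowest combined array against 4.588 on the highest TNFα array. The FANCC interaction was 0.73 on the log2 scale (SE 0.21, unadjusted p = 0.00348), but the adjusted p in limma was 0.923, so it did not pass. RAD50 was lower with TNFα than in control (7.08 to 7.30 against 7.51 to 7.56) and higher with both than with apigenin alone (7.18 to 7.20 against 7.02 to 7.12). Its interaction was 0.45 (SE 0.15, unadjusted p = 0.00918, adjusted p = 0.999 in limma). The 2 genes were picked by this pattern, so their interaction p-values are not a separate test of it. In both genes all 3 control arrays were above every treated array.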

How the results depend on the processing

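Each of the 14 called repair genes, followed in the comparison with its smallest adjusted p, kept its sign in the alternatives, and MRE11, MUS81, FANCG and PALB2 were called with averaged apigenin in all 21. Averaged apigenin called 12 of the 29 genes, against 7 at a threshold of 0.01 and 5 with the small nucleolar RNA covariate; without 1 array the count ran from 7 to 15. Apigenin against control called 8, against 4 with only the groups compared, 3 without the 4 arrays numbered 3, 3 at 0.01 and 4 with the covariate, and 3 to 8 without 1 array. It was 4 without control 1, 5 without control 3, and 4, 3 and 5 without apigenin 1, 2 and 3. The combined treatment against TNFα called 2, against 6 with array weights and 0 at 0.01, and 1 to 3 without 1 array; the 1 came without TNFα 1, combined 1 or combined 2. The combined treatment against control called 8, against 5 with only the groups compared, 5 without the arrays numbered 3 and 0 at 0.01, and 3 to 10 without 1 array; it was 3 without control 1, 5 without control 2, and 4, 3 and 4 without combined 1, 2 and 3. TNFα against control called 0, against 1 with quantile normalisation, and 0 to 0 without 1 array; TNFα on apigenin and the interaction also stayed at 0 to 0, and averaged TNFα gave 0 to 1. Fits on fewer arrays have fewer degrees of freedom. Otherwise the cause was not tested. Most of these counts stand without the count over all genes in the same fit. From the counts given here alone, a change in them can therefore not be told apart from a change over all genes.

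With the replicate number as a block, the combined treatment called 9 genes against TNFα and 14 against control, apigenin 10 against control and 13 on average. Over all genes the block took these calls from 2085 to 3315, 2576 to 3819, 2342 to 3501 and 4148 to 5366. Same-numbered arrays deviated from their group means together with r of 0.0182 to 0.464, above 0.1 in 13 of 18 pairs, and 11 of 12 arrays correlated best with their own number. The labels do not say what a number marks, so the arrays were not taken as paired.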

Other observations

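Other repair and damage genes also went both ways with averaged apigenin. In the counts that follow, rose and fell mean called higher and lower, which held for 8.5% and 11.7% of all genes. In damage signalling 5 of 18 genes rose and 4 fell (median -0.05), and the CDC25 phosphatases, which switch on cyclin-dependent kinases, split: CDC25C fell by 1.36 and CDC25B by 0.83, while CDC25A rose by 0.59. Of 11 genes of non-homologous end joining, the other route of break repair, 1 was called higher and none lower. The called gene was the ligase LIG4 (0.51, adjusted p = 0.00434 in limma). Of the 11 differences, 4 were above 0 and 7 below, down to -0.34. An unadjusted p below 0.05 was found for 4 of the 11, and for 6142 of all 20572 genes. In mismatch repair MLH3 rose (0.49) and MSH3 fell (-0.43), 2 of 5 genes. In nucleotide excision repair 1 of 14 genes rose and 2 fell: DDB2, a lesion sensor, by -0.86 (adjusted p = 8.65e-05), the helicase ERCC2 by -0.39, and GTF2H3 of the same TFIIH complex rose by 0.48.

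Of the replication genes, ORC6 and FEN1 rose by 1.30 and 1.01 and MCM3 differed by -0.69. In the mitosis list CENPE and TOP2A differed by -1.47 and -1.17. CDKN1A (p21), which blocks cyclin-dependent kinases, rose by 0.99.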
